A study of Mus musculus with 14 samples.

Results

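Genes of 7 families that carry amino acids and related molecules across membranes (Slc1, Slc3, Slc6, Slc7, Slc36, Slc38 and Slc43) were examined in spleen T cells from mice with chronic myeloid leukemia (CML). Members were all genes whose symbol starts with the name of one of these families, which gave 65 of the 24091 genes counted. They comprise 62 transporter genes or transporter subunits and 3 neighbouring genes on the opposite strand (Slc36a1os, Slc6a19os and Slc7a6os) that share the symbol but are not transporters. The T cells of 8 mice with the genotype Mir142+/+BCR-ABL (CP CML, the chronic phase) were compared with those of 6 mice with the genotype Mir142−/−BCR-ABL (BC CML, blast crisis), with 200000 sorted cells and 1 library per mouse. All 14 mice were male or female animals of the C57Bl/6j background with CD45.2, aged 6 to 10 weeks. All carried the SCLtTA and BCR-ABL transgenes, in which the Scl regulatory region drives BCR-ABL in blood stem and progenitor cells once tetracycline is withdrawn, and withdrawal had lasted 3 weeks. Mir142 was deleted in the whole animal, so genotype and disease phase changed together in every comparison here, and no mouse without BCR-ABL was included. The mouse names of each group share a prefix that the other group lacks. What it stands for is not stated, and anything tied to it cannot be told apart from genotype.

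Amino acid transporters differ in what they carry and what drives them. Slc38a1, Slc38a2 and Slc1a5 bring glutamine and small neutral amino acids into the cell with sodium. Members of the Slc7 family either act alone as carriers of arginine and lysine or, as light chains, pair with a heavy chain from the Slc3 family that takes them to the cell surface. Stimulated T cells are known to raise glutamine, large neutral amino acid and cystine uptake, and amino acids reach the growth kinase complex mTORC1 through sensors on the lysosome that include Slc38a9.

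Counts of reads were scaled to counts per 1000000 reads (CPM) with edgeR's TMM factors, and levels of different genes were compared as CPM per kilobase of gene length (FPKM). A gene was called higher or lower when edgeR's quasi-likelihood test gave an adjusted p below 0.05 over the 12248 genes with enough reads to be tested. The deleted gene, Mir142, had 302 to 650 reads in the CP CML mice and 0 in all BC CML mice. The libraries held 15703702 to 19914531 reads in CP CML and 16145537 to 19399720 in BC CML. T cell identity genes were abundant in both groups, with summed levels of 4067 to 4672 CPM in CP CML and 5131 to 5579 CPM in BC CML. Markers of other cells were present as well. The 14 neutrophil and monocyte markers summed to 65.4 to 750.2 CPM in CP CML and 884 to 2327 CPM in BC CML (13 of 14 were called higher; Elane and Ly6g had no read in at least 1 CP CML library, and none of the 14 was at 0 in all libraries), and the 8 B cell markers to 60.7 to 179.7 and 103 to 511 CPM (6 higher). Naive T cell markers summed to 4919 to 6275 CPM in CP CML and 2702 to 3875 CPM in BC CML (8 of 8 lower), while effector markers summed to 847 to 1046 CPM and 1777 to 2397 CPM (11 of 14 higher) and natural killer (NK) cell markers to 207 to 287 CPM and 666 to 902 CPM (8 of 8 higher). These are bulk samples, so fewer cells of a type and less RNA per cell cannot be told apart.

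Of the 65 members, 30 were tested, 29 transporters and Slc7a6os. Slc6a19 had a mean of 17.5 CPM in CP CML and 1.25 CPM in BC CML, and Slc38a2, already among the most abundant members, rose 1.45-fold, while Slc6a9 and Slc1a3, both sparsely expressed, rose by more than 4-fold. The heavy chain Slc3a2 and its main light chain Slc7a5 were at almost equal levels in both groups. In all, 11 members were higher and 11 lower (10 of them transporters), and 8 were not called. Among all genes tested 65.2% were called, 32.6% higher and 32.7% lower, so the count of members called lay near that background. The groups of mice did not overlap for 10 members, 6 higher and 4 lower, against 36.9% of all genes tested. The median log2 fold change was 0.04 for the members and −0.01 for all genes tested, and the median absolute log2 fold change 0.37 and 0.28. These figures cover only members that passed the filter on low counts, which asks for 10 reads at the median depth in 6 or more libraries. The lower group alone fell short of it for 3 members, with 2 of 8 CP CML libraries at that level for Slc7a11, 3 of 6 BC CML libraries for Slc7a10 and 5 of 6 for Slc6a19, so these were tested through the group in which they were high. Slc6a19 was known to fall in these data when the families were chosen.

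**Figure D1:**
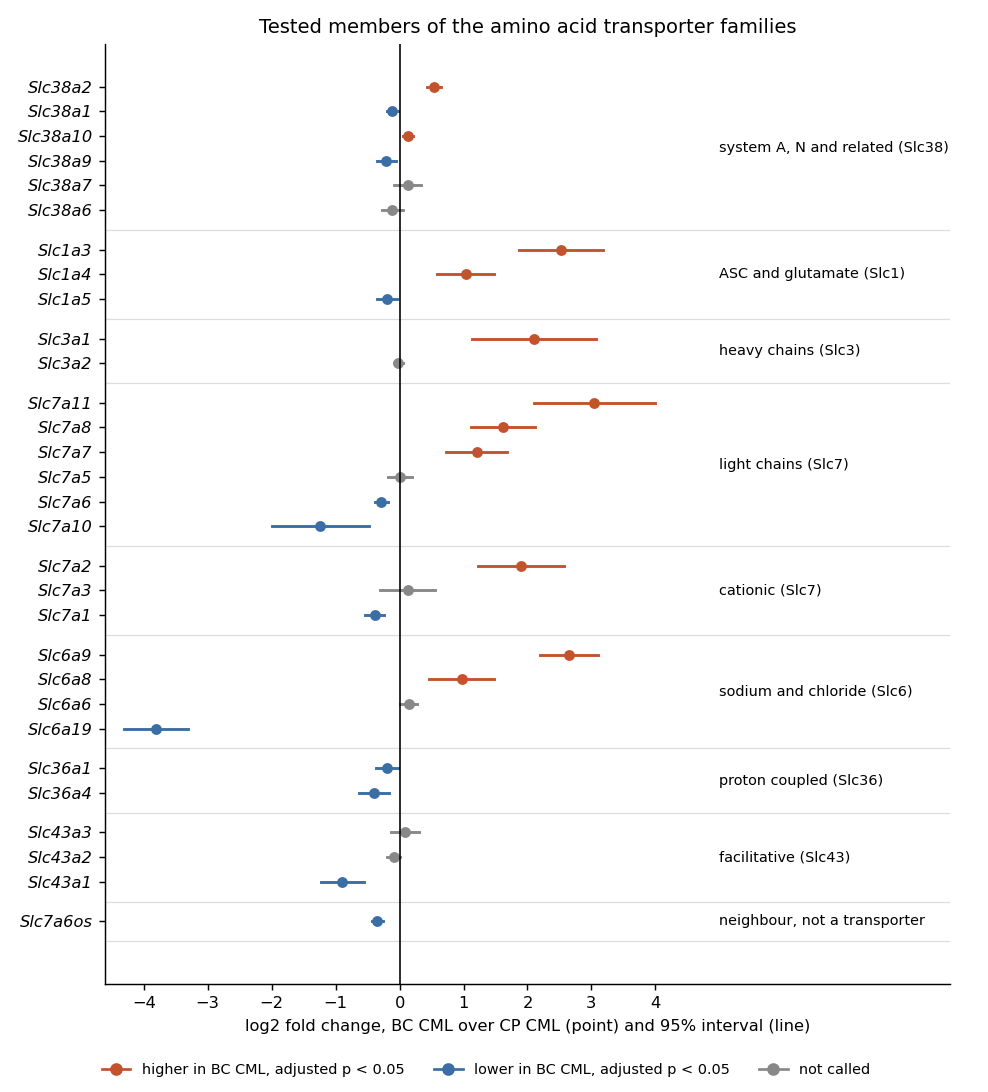
The log2 fold change in BC CML over CP CML (horizontal axis) of each of the 30 tested members, with lines for the 95% interval, ordered by family and role. Slc6a19 stands alone at the left at −3.81, and the members beyond 2 at the right are Slc7a11, Slc6a9, Slc1a3 and Slc3a1.

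Because Mir142 is the deleted gene, its mature microRNAs and the members that hold a match to them are shown. The sequences were taken from RefSeq (GRCm38.p6) for the microRNAs, which lie on the plus strand of chromosome 11 (87756867 to 87756887 and 87756903 to 87756925), with capitals for the seed, bases 2 to 8.
miR-142a-5p: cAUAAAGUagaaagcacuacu
miR-142a-3p: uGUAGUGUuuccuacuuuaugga
An 8-base site is the complement of the seed followed by A, ACTTTATA for miR-142a-5p and ACACTACA for miR-142a-3p. In the longest annotated 3′ untranslated region (UTR) of each gene (GENCODE vM21, mm10), 3 of the 30 members held a site for miR-142a-3p, against 3.04% of 11509 tested genes with such a region, and 2 held a site for miR-142a-5p, against 5.22%. The median region was longer in members (1888 bases) than in all tested genes (1187 bases). Sites are in capitals below, 5′ to 3′ on the transcript.
Slc1a3 (miR-142a-3p): ttgggaaatACACTACAgaggttaat
Slc7a11 (miR-142a-3p): ctcgcatacACACTACAgatttttag
Slc36a1 (miR-142a-3p): cacatatgcACACTACAgagcggttt
Slc36a4 (miR-142a-5p): agaaccaaaACTTTATAacatttatg
Slc38a1 (miR-142a-5p): gcagttttaACTTTATAgctctccca
The sites lie at chr15:8634366-8634373 (minus strand) in Slc1a3, chr3:50367227-50367234 (minus) in Slc7a11, chr11:55234144-55234151 (plus) in Slc36a1, chr9:15740332-15740339 (plus) in Slc36a4 and chr15:96573698-96573705 (minus) in Slc38a1. Of these genes Slc1a3 was called higher and Slc36a1, Slc36a4 and Slc38a1 lower. Slc7a11 had higher levels in BC CML but reached the filter through those mice, so this is a description. The site of Slc36a4 lies beyond the end of that gene as listed with the counts. Over all tested genes, the miR-142a-3p site was held by 5.22% of those called higher, 1.4% of those called lower and 2.47% of those not called, and the miR-142a-5p site by 6.51%, 4.29% and 4.85%. The median length of the region in these sets was 1380, 1099 and 1083 bases, so genes called higher also had the longer regions. The 3′ UTR of Slc6a19 held neither site.

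Slc6a19 (B0AT1), a sodium-driven carrier of neutral amino acids best known from the brush border of gut and kidney, showed the largest difference of the tested members. In the counts table it spans chr13:73681157-73700695 (mm10, minus strand). Its level in CP CML was lowest at 13.4 CPM, with a median of 18.2 and a highest value of 23.6, on 223 to 370 reads per library. In BC CML the lowest value was 0.277 CPM, the median 1.35 and the highest 1.89, on 5 to 36 reads. Every BC CML mouse lay far below every CP CML mouse, and mouse 1 of BC CML was lowest. The log2 fold change was −3.81 (SE 0.23), given as a description with no test, since the gene was known to be lower when the families were chosen and reached the filter through the CP CML mice. Per length it went from 12th to 25th of the 29 transporters (7.23 to 0.513 FPKM). Slc6a19os, which overlaps the upstream end of its listed span, had at most 2 reads in any library, and Slc6a18 and Slc6a3 had none. In the kidney the protein needs the membrane partner collectrin (Tmem27), which had 1 read over all 14 libraries.

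The other tested members of the sodium and chloride dependent family Slc6 were higher or not called. Slc6a9 (GlyT1), a glycine carrier, ranged from 0.427 CPM through a median of 0.613 to 1.27 in CP CML and from 2.87 through 4.38 to 5.38 in BC CML. The groups did not overlap, and its log2 fold change was 2.65 (SE 0.22, adjusted p = 8.9e-09, edgeR). Slc6a8, the creatine carrier, ranged from 0.368 CPM (median 0.898) to 1.34 in CP CML and from 1.29 (median 1.86) to 2.37 in BC CML, with a log2 fold change of 0.97 (SE 0.24, adjusted p = 0.0018, edgeR). Only the ends of its ranges met. Slc6a6, the taurine carrier and the most abundant of the family, had a mean of 148 ± 12.5 CPM (SD, n = 8) in the CP CML mice and 164 ± 15.2 (SD, n = 6) in the BC CML mice. A log2 fold change of 0.14 missed the threshold (95% interval 0.01 to 0.27, adjusted p = 0.051, edgeR).

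**Figure D2:**
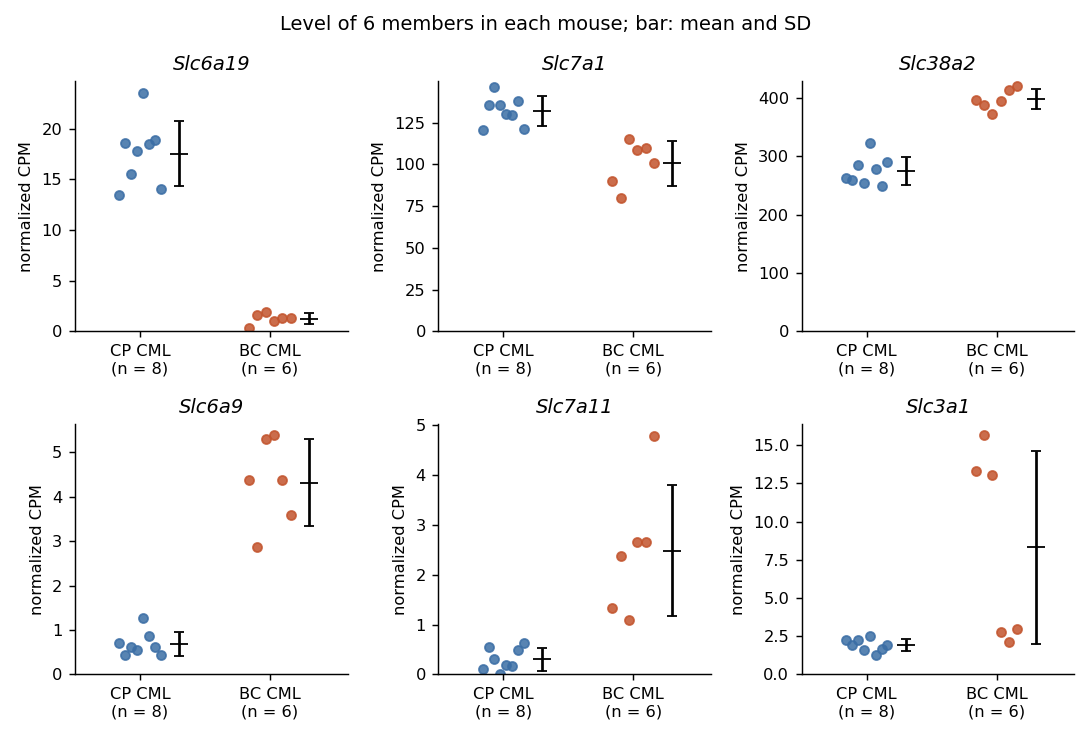
Normalized CPM (vertical axes, starting at 0) of 6 members in each of the 8 CP CML and 6 BC CML mice, with bars for the mean and SD. Slc6a19 and Slc7a1 lie lower in every BC CML mouse, Slc38a2, Slc6a9 and Slc7a11 higher, and Slc3a1 is high in 3 BC CML mice, at 13.0 to 15.6 CPM, and at 2.11 to 2.98 CPM in the other 3.

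Among the glutamine carriers, Slc38a2 (SNAT2) rose and Slc1a5 (ASCT2) and Slc38a1 (SNAT1) were slightly lower. Slc38a2 (chr15:96687392-96699698, minus strand) ranged from 248 CPM through a median of 270.2 to 322 in CP CML and from 373 through 396 to 421 in BC CML. The groups did not overlap, with a log2 fold change of 0.53 (SE 0.05, adjusted p = 8.3e-08, edgeR). Its neighbour Slc38a1 ranged from 299.9 (median 333) to 365 CPM in CP CML and from 298 (median 305) to 323 in BC CML, so the groups overlapped in part, with 6 of the 8 CP CML mice above every BC CML mouse (log2 fold change −0.12, SE 0.04, adjusted p = 0.018, edgeR). Slc1a5 ranged from 167 (median 201) to 237 CPM in CP CML and from 149.5 (median 179) to 195 in BC CML, again with overlap. Its log2 fold change was −0.19 (SE 0.07, adjusted p = 0.033, edgeR), and the call was lost without mouse 5 or 6 of CP CML and without mouse 4, 5 or 6 of BC CML (log2 fold changes from −0.23 to −0.15 over all 14 omissions).

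Within a mouse, the order of the pair most abundant per length changed. Per length, Slc1a5 was the most abundant of the 29 transporters in CP CML (73.9 FPKM against 58.8 for Slc38a2) and Slc38a2 in BC CML (85.1 against 64.7 FPKM). The ratio of Slc38a2 to Slc1a5 was 0.691 to 0.916 in the CP CML mice (mean 0.7997 ± 0.0713, SD) and 1.19 to 1.65 in the BC CML mice (mean 1.33 ± 0.18, SD), above 1 in 0 of 8 and 6 of 6 mice. In CPM, Slc38a2 lay above Slc1a5 in every mouse, at 248 to 322 against 167 to 237 CPM in CP CML and 373 to 421 against 149.5 to 195 in BC CML. The side of 1 on which the ratio falls thus depends on the deposited lengths (4.679 kilobases for Slc38a2 and 2.749 for Slc1a5). This pair was chosen after its values had been seen, so the ratio is given as a description, with no test. Of the summed FPKM of the tested transporters, Slc38a2 held 17.8% ± 0.963 (SD over 8 mice) in CP CML and 25.0% ± 1.53 (SD over 6 mice) in BC CML, and Slc1a5 22.3% ± 1.65 and 19.0% ± 1.47.

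The remaining Slc38 members reside on inner membranes or are less well known. Slc38a9, the lysosomal arginine sensor of mTORC1, was lower with a log2 fold change of −0.21 (55.0 to 76.6 CPM, median 61.7, in CP CML and 46.5 to 59.3, median 53.8, in BC CML, adjusted p = 0.014, edgeR). Slc38a10 ranged from 107 to 120.5 CPM (median 113) in CP CML and from 116 to 129 CPM (median 125) in BC CML and was higher by 0.13 on the log2 scale (SE 0.04, adjusted p = 0.0038, edgeR). The lysosomal glutamine and asparagine carrier Slc38a7 (0.13) and Slc38a6 (−0.11) were not called.

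In the Slc1 family, the glutamate and aspartate carrier Slc1a3 (GLAST) and the alanine, serine and cysteine carrier Slc1a4 (ASCT1) rose. Slc1a3 ranged from 0.702 (median 1.44) to 2.39 CPM in CP CML and from 3.91 (median 8.91) to 15.3 CPM in BC CML, without overlap. Its log2 fold change was 2.52 (SE 0.31, adjusted p = 2.6e-06, edgeR), and mouse 2 of BC CML was highest. This is one of the genes with a miR-142a-3p site shown above, as is Slc36a1, which was lower. Slc1a4 ranged from 1.31 (median 2.49) to 4.14 CPM in CP CML and from 3.05 (median 5.80) to 6.45 CPM in BC CML. Only mouse 2 of BC CML lay within the CP CML range (log2 fold change 1.03, SE 0.21, adjusted p = 3.5e-04, edgeR).

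Of the heavy chains in the Slc3 family, Slc3a1 was called higher and Slc3a2 was not called. Slc3a2 (4F2hc, part of CD98), which serves the light chains Slc7a5, Slc7a6, Slc7a7, Slc7a8, Slc7a10 and Slc7a11, was at 91.4 to 98.4 CPM (median 95.1) in CP CML and 91.1 to 99.0 CPM (median 92.9) in the BC CML mice, a difference of −0.02 on the log2 scale (95% interval −0.09 to 0.05, adjusted p = 0.58, edgeR). Slc3a1 (rBAT; chr17:85028347-85064241, plus strand) ranged from 1.24 (median 1.95) to 2.48 CPM in CP CML. In BC CML it was at 13.3, 15.6 and 13.0 CPM in mice 1, 2 and 3 and at 2.77, 2.11 and 2.98 CPM in mice 4, 5 and 6. The first set lay more than 5-fold above the highest CP CML mouse and the second at or near its level, so the fitted log2 fold change of 2.10 (SE 0.45, adjusted p = 9.1e-04, edgeR; 1.83 to 2.30 with any mouse omitted) lies between the levels of these sets. Slc7a9, the light chain that Slc3a1 is known to pair with in the kidney, had no read in any library, and Slc7a13, another partner there, had 1.

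The light chains of Slc3a2 moved in both directions around a constant sum. Slc7a5 (LAT1), the carrier of leucine and other large neutral amino acids, ranged from 48.7 (median 55.6) to 65.7 CPM in CP CML and from 39.9 (median 58.5) to 64.7 CPM in the BC CML mice, a difference of 0.00 on the log2 scale (95% interval −0.18 to 0.19, adjusted p = 0.97, edgeR). Slc7a6 (y+LAT2), which exchanges cationic for neutral amino acids, fell from 63.7 to 75.7 CPM (median 69.5) to 54.0 to 60.2 CPM (median 56.8), without overlap (log2 fold change −0.28, SE 0.05, adjusted p = 3.0e-05, edgeR).

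Slc7a7 (y+LAT1) and Slc7a8 (LAT2), both on chromosome 14, rose. Slc7a7 ranged from 0.855 (median 1.77) to 2.89 CPM in CP CML and from 3.03 (median 4.47) to 5.92 CPM in BC CML, with a log2 fold change of 1.21 (SE 0.22, adjusted p = 1.4e-04, edgeR). Slc7a8 ranged from 2.10 (median 3.23) to 4.58 CPM and from 5.38 (median 9.87) to 15.5 CPM, with a log2 fold change of 1.62 (SE 0.24, adjusted p = 1.7e-05, edgeR). Neither pair of groups overlapped, though the highest CP CML and lowest BC CML mice lay close together.

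Slc7a11 (xCT), which exchanges cystine for glutamate, was scarce in both groups. It ranged from 0 (median 0.249) to 0.629 CPM in CP CML, on 0 to 10 reads, and from 1.10 (median 2.51) to 4.78 CPM in BC CML, on 21 to 93 reads. The groups did not overlap, and mouse 6 of BC CML was highest (log2 fold change 3.05, SE 0.44). It reached the filter through the BC CML mice, so it could be tested only because it was higher there, and its values are a description. Slc7a10 (Asc-1), a carrier of small neutral amino acids, ranged from 0.552 (median 1.20) to 2.50 CPM in CP CML and from 0.206 (median 0.561) to 0.776 CPM in BC CML, on 9 to 49 and 4 to 14 reads, with a log2 fold change of −1.24 (SE 0.36) and overlapping groups. It reached the filter through the CP CML mice and was not tested with a filter of 1 CPM, so its values, too, are a description.

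Slc7a5 made up 50.2% of the light chain FPKM in CP CML and 50.6% in BC CML, Slc7a6 43.3% and 35.7%, Slc7a8 2.10% and 6.52%, Slc7a7 2.41% and 5.63%, Slc7a10 1.95% and 0.830%, and Slc7a11 0.0861% and 0.706%. Together the 6 light chains reached 31.5 ± 1.84 FPKM (SD over 8 mice) in CP CML and 31.3 ± 2.56 (SD over 6 mice) in BC CML, beside 32.3 ± 0.888 and 31.8 ± 1.02 FPKM for Slc3a2. Their ratio to Slc3a2 was 0.897 to 1.05 in CP CML and 0.872 to 1.09 in BC CML. Its means of 0.976 ± 0.0443 (SD over 8 mice) and 0.985 ± 0.0831 (SD over 6 mice) differed by less than the spread between mice. This ratio, too, was chosen after its values had been seen.

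**Figure D3:**
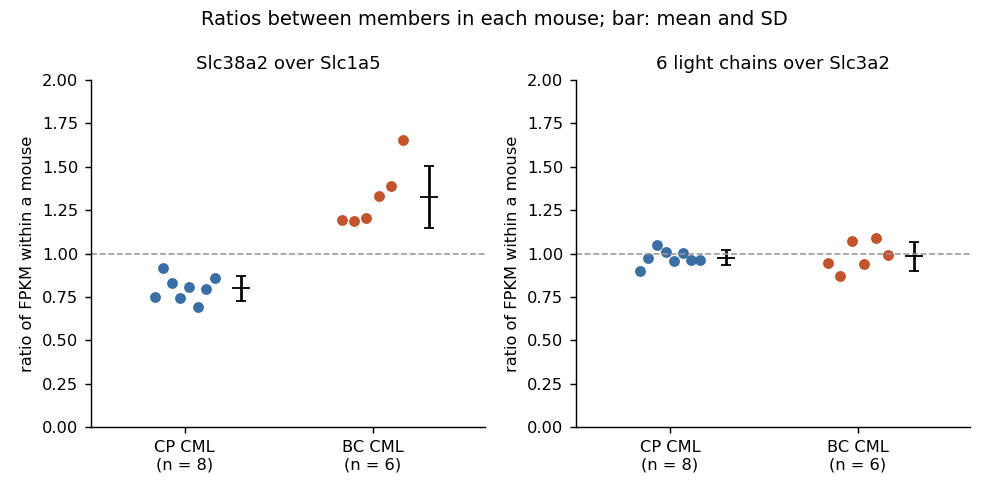
Ratios of FPKM within each mouse (vertical axes, starting at 0) for Slc38a2 over Slc1a5 and for the 6 light chains over Slc3a2, with bars for the mean and SD and a dashed line at 1. The first ratio is below 1 in all 8 CP CML mice and above 1 in all 6 BC CML mice, and the second lies around 1 in both groups.

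The cationic carriers Slc7a1 (CAT1), Slc7a2 (CAT2) and Slc7a3 (CAT3), which bring arginine and lysine into cells, also diverged. Slc7a1 ranged from 120.3 (median 133) to 147 CPM in CP CML and from 79.8 (median 105) to 115 CPM in BC CML. The groups did not overlap (log2 fold change −0.39, SE 0.07, adjusted p = 1.4e-04, edgeR). Slc7a2 ranged from 0.611 (median 1.22) to 2.08 CPM in CP CML and from 1.13 (median 5.25) to 6.86 CPM in BC CML, where mouse 6 alone lay within the CP CML range (log2 fold change 1.90, SE 0.32, adjusted p = 6.1e-05, edgeR). Slc7a1 remained far the more abundant per length, 71.8 to 241 times Slc7a2 in CP CML and 12.6 to 96.8 times in BC CML. Slc7a3 was near 1 CPM in both groups (log2 fold change 0.12, adjusted p = 0.60, edgeR).

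Both tested members of the proton-coupled family Slc36 were lower. Slc36a1 (PAT1), found on lysosomes, had a log2 fold change of −0.19 on 42.3 to 63.2 CPM (median 52.2) in CP CML and 40.8 to 49.4 (median 47.0) in BC CML (adjusted p = 0.040, edgeR), a call lost without any of mice 3, 4, 5 or 6 of CP CML or 3, 5 or 6 of BC CML. Slc36a4 (PAT4) had a log2 fold change of −0.39 (SE 0.11, adjusted p = 0.0048, edgeR). In the Slc43 family, the branched-chain amino acid carrier Slc43a1 (LAT3) fell from 5.35 to 10.4 CPM (median 8.00) to 3.19 to 5.38 CPM (median 4.25), with slight overlap (log2 fold change −0.89, SE 0.16, adjusted p = 9.0e-05, edgeR). Its relative Slc43a2 (LAT4), at 101.2 ± 5.68 CPM in the 8 CP CML mice and 95.05 ± 6.29 in the 6 BC CML mice (SD), was not called (−0.09, 95% interval −0.19 to 0.01), nor was Slc43a3 (0.08), which carries purine nucleobases. Slc7a6os, which encodes a factor for the nuclear import of RNA polymerase II and lies next to Slc7a6 on chromosome 8, fell from 60.9 to 68.2 CPM (median 64.8) to 45.5 to 53.2 CPM (median 51.6), without overlap (log2 fold change −0.35, SE 0.04, adjusted p = 7.8e-07, edgeR). The listed spans of Slc7a6 and Slc7a6os do not overlap.

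The changes left the summed level nearly as it was. The 29 tested transporters summed to 1728 ± 68.6 CPM (SD over 8 mice) in CP CML and 1775 ± 24.4 CPM (SD over 6 mice) in BC CML. The 9 members called higher other than Slc38a2 and Slc38a10 made up 1.14% ± 0.124 (SD) of the summed FPKM in CP CML and 3.69% ± 1.08 (SD) in BC CML, so most of the large fold changes were in members of low level. After Slc1a5 and Slc38a2 the order per length was Slc3a2 (32.3 and 31.8 FPKM), then Slc38a1 (23.1 and 21.3), Slc6a6 (21.7 and 23.9) and Slc38a10 (21.0 and 23.0), whose ranges over mice overlapped within each group. Below these, in the order of CP CML, followed Slc7a1 (18.3 and 13.9), Slc7a5 (15.8 in both), Slc7a6 (13.6 and 11.2), Slc43a2 (10.7 and 10.04) and Slc36a1 (9.73 and 8.50 FPKM). In BC CML Slc7a5 lay above Slc7a1.

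**Figure D4:**
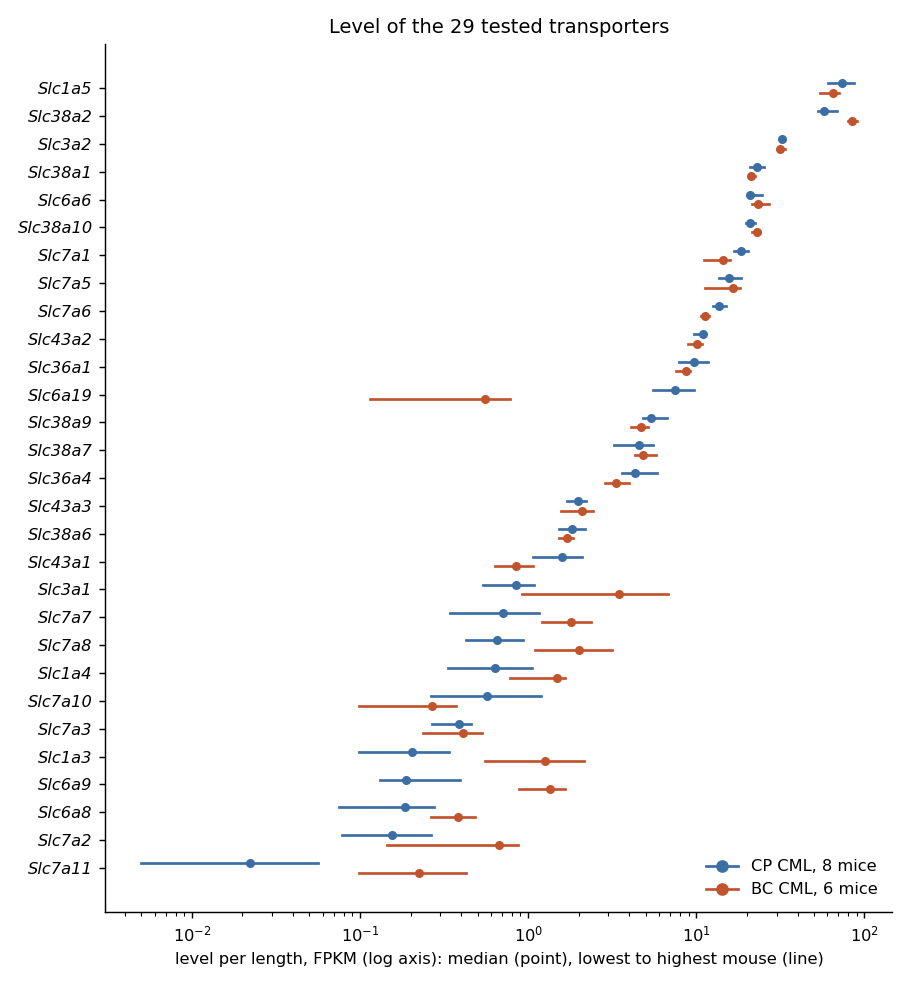
Level per length (horizontal axis, FPKM, log scale) of the 29 tested transporters, ordered by their CP CML median, with points for the median and lines from the lowest to the highest mouse of each group; a level of 0, found for Slc7a11 in CP CML, is drawn at the left end of its line. Among the upper rows the groups lie apart for Slc38a2, Slc7a1 and Slc7a6, and the separations grow among the rows of low level and for Slc6a19.

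The 35 members under the filter on low counts were at or near the limit of detection. Across the families 16 members had no read in any library and 34 had at most 10 reads in every library. The Slc6 family, which also holds the carriers of neurotransmitters, had 9 members without reads of 21 listed, among them Slc6a2 (noradrenaline) and Slc6a3 (dopamine). Among those under the filter the most reads were found for Slc7a4, a relative of the cationic carriers, with 2 to 12 reads in CP CML and 7 to 18 in BC CML, and for Slc36a3, with 0 to 10 and 2 to 6 reads. The neuronal glutamate carrier Slc1a1 had at most 3 reads in CP CML and 7 in BC CML.

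Genes on which these transporters depend, and genes known to respond to amino acid supply, were counted from lists, to be read beside the 32.6% of all genes tested that were higher and the 32.7% that were lower. Of 21 tested genes of the amino acid response through GCN2 and ATF4, 9 were higher and 3 lower, with a median log2 fold change of 0.25 against −0.01 for all genes tested. Asns (asparagine synthetase) rose from 1.27 to 5.90 CPM (log2 fold change 2.22), Stc2 by 1.26, Atf5 by 1.01 and Ddit3 by 0.99 on the log2 scale, while Ppp1r15a (−0.79), Mthfd2 (−0.30) and Shmt2 (−0.18), named here because they are the only genes of the list called lower, went down and Atf4 itself was not called (0.08). With the naive T cell markers as a covariate 2 of these genes were higher and 0 lower, and with the myeloid markers 9 and 1. Of 38 genes of amino acid sensing by mTORC1, 17 were higher and 8 lower (median 0.11), the largest changes being those of Fnip2 (1.15), Deptor (1.06), Rragd (0.90) and Lamtor4 (0.78).

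Among 28 enzymes of amino acid metabolism, 12 were higher and 10 lower (median 0.03). Ass1, which catalyses a step of arginine synthesis, fell from 99.1 to 41.9 CPM (log2 fold change −1.24). Ckb, which phosphorylates creatine, rose from 9.65 to 59.9 CPM (2.63), and Gatm, which makes a precursor of creatine, from 2.63 to 7.31 CPM (1.47). Of 14 genes of glutathione and cystine metabolism, 4 were higher and 4 lower (median 0.10). Ggt1, which cleaves glutathione outside the cell, fell from 57.6 to 10.4 CPM (−2.47), Ggt7 was lower by −0.43, and Txn1 (0.53) and Gss (0.51) rose.

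Of 23 genes of cytosolic aminoacyl-tRNA synthetases, 4 were higher and 7 lower (median −0.04), led by Wars (0.40), Lars (−0.30), Aimp2 (−0.22) and Dars (−0.22), and all 7 calls of lower genes were lost with either covariate. Of 16 transporters of amino acids and peptides from other families, 3 were higher and 4 lower (median −0.01), led by Slc15a3 (1.36), Slc16a10 (1.24), Slc25a12 (−0.62) and Slc25a44 (−0.41). Of 9 tested partner genes of transporters, 6 were higher and 1 lower (median 0.48). Nedd4, a ubiquitin ligase, rose from 69.9 to 299.8 CPM (log2 fold change 2.10), Anpep by 1.89, Bsg by 0.75 and the ligase Wwp1 by 0.50 on the log2 scale.

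The promoters of the members were searched for TGATGNAA, the element known to be bound by ATF4 with C/EBP proteins, on both strands of 250 bases before to 50 bases after each RefSeq start (GRCm38.p6). RefSeq windows were matched for 22 of the 30 members. The element was present in 3 of the 22 (13.6%), against 2.86% of 9548 tested genes with a window. A gene was counted if any of its windows held the element, with no adjustment for the number of windows. Slc7a7 had several windows, and only some of them held it. Motif letters are in capitals, 5′ to 3′ on the gene's strand.
Slc7a11: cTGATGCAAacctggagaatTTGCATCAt
Slc1a4: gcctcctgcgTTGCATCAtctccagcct
Slc7a7: acctagaagcTGATGCAAcagcttcccc
Slc7a7: cgcttgggctTGATGAAAggttcactgg
These stretches lie at chr3:50443652-50443680 in Slc7a11, which holds the element in both orientations, at chr11:20332700-20332727 in Slc1a4, across the start, and at chr14:54417928-54417955 and chr14:54418068-54418095 in Slc7a7, all on the minus strand. The E-box CACGTG was present in 3 of the 22 (13.6%), Slc36a1, Slc38a7 and Slc43a1, against 11.8% of tested genes. A match in letters describes the sequence and does not show binding.

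Markers of myeloid cells were higher in BC CML, and the level of some members varied with them from mouse to mouse. Slc7a11 was lowest (0 CPM) in the CP CML mouse with the lowest sum of neutrophil and monocyte markers (mouse 4, 65.4 CPM), highest among CP CML mice in the mouse with the highest sum (mouse 8, 0.629 CPM at a sum of 750.2), and highest of all in the BC CML mouse with the highest sum (mouse 6, 4.78 CPM at a sum of 2327). Slc7a10 was at its lowest in that mouse (0.206 CPM). Within BC CML this order was not seen for Slc1a3, Slc7a7 and Slc7a8, which were each highest in mouse 2 (sum 1145 CPM) and among the lowest in mouse 6. Within CP CML each was higher in mouse 8 than in mouse 4, Slc1a3 at 1.32 against 0.702, Slc7a7 at 2.64 against 1.55 and Slc7a8 at 4.40 against 2.41 CPM. For none of them was mouse 8 the highest CP CML mouse.

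With the mean log2 level of the myeloid markers as a covariate in the fit, 10 members were called higher and 6 lower, with Slc6a19, a description, among the 6. Slc7a11 (log2 fold change 1.08 against 3.05) and Slc7a10 (−0.27 against −1.24) were not among those called. Each had reached the filter through the group in which it was high, so these values are a description. The calls lost among the other members were those of Slc38a1 (−0.02 against −0.12, adjusted p = 0.79, edgeR), Slc1a5 (−0.13 against −0.19, adjusted p = 0.39), Slc36a1 (−0.13 against −0.19, adjusted p = 0.42) and Slc38a9, whose fold change was no smaller (−0.27 against −0.21, adjusted p = 0.0504). Slc6a9 (2.75), Slc3a1 (2.57), Slc1a3 (2.42) and Slc38a2 (0.48) remained called, and the log2 fold change of Slc6a19 was −3.81 with and without the covariate. With the mean of the naive markers in its place, which stands closer to the grouping itself (correlation with the group −0.95, against 0.75 for the myeloid markers), 1 member was called higher, Slc6a9 (2.70, adjusted p = 0.013), and 3 lower, Slc6a19 (−4.08 against −3.81, a description), Slc1a5 (−0.69 against −0.19, adjusted p = 0.032) and Slc36a1 (−0.75 against −0.19, adjusted p = 0.027, edgeR), and 1919 genes in all were called instead of 7986.

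The calls of 18 members were lost with the naive covariate. In 7 of these the fold change was smaller by more than 1.5 times, on the log2 scale 0.23 against 0.53 for Slc38a2 (adjusted p = 0.33, edgeR), 1.66 against 2.52 for Slc1a3, 0.89 against 1.90 for Slc7a2, 0.49 against 1.21 for Slc7a7, −0.18 against −0.89 for Slc43a1, −0.05 against −0.39 for Slc36a4 and −0.19 against −0.35 for Slc7a6os. In 3 the direction turned, Slc6a8 (−0.49 against 0.97), Slc7a1 (0.05 against −0.39) and Slc38a9 (0.21 against −0.21). In the other 8 it was larger, or smaller by less than that, Slc7a11 (3.25 against 3.05), Slc1a4 (1.88 against 1.03), Slc7a10 (−3.15 against −1.24), Slc7a8 (1.40 against 1.62), Slc3a1 (1.69 against 2.10), Slc7a6 (−0.33 against −0.28), Slc38a10 (0.26 against 0.13) and Slc38a1 (−0.11 against −0.12). The values of Slc7a11 and Slc7a10 are a description here as well.

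Markers of further cells differed between the groups as well. The 8 basophil and mast cell markers summed to 5.35 to 13.0 CPM in CP CML and 19.4 to 53.1 CPM in BC CML, with 2 of 5 tested called higher. These were Kit, which progenitors also express (mean 3.77 CPM in CP CML and 25.4 in BC CML), and Cpa3 (mean 1.05 and 3.31 CPM). The regulatory T cell markers had similar sums (444 to 515 and 426 to 604 CPM), but Foxp3 (log2 fold change −1.73) and Ctla4 (−1.34) were lower and Tnfrsf9 (0.97) and Ikzf2 (0.62) higher. Erythroid markers summed to 18.4 to 74.3 and 58.5 to 94.2 CPM (3 of 6 tested higher) and platelet markers to 89.5 to 126 and 69.7 to 90.4 CPM (2 of 3 tested lower). Most of the platelet sum was Itgb3, with a mean of 103 CPM in CP CML and 75.6 in BC CML. Pf4 (means 0.0365 and 0.249 CPM), Ppbp (0.0866 and 0.390), Gp1ba, Gp1bb and Gp9, all too scarce to be tested, had higher means in BC CML. The part of these markers, and of the NK cell, effector and B cell markers, in the changes of the members was not tested.

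**Figure D5:**
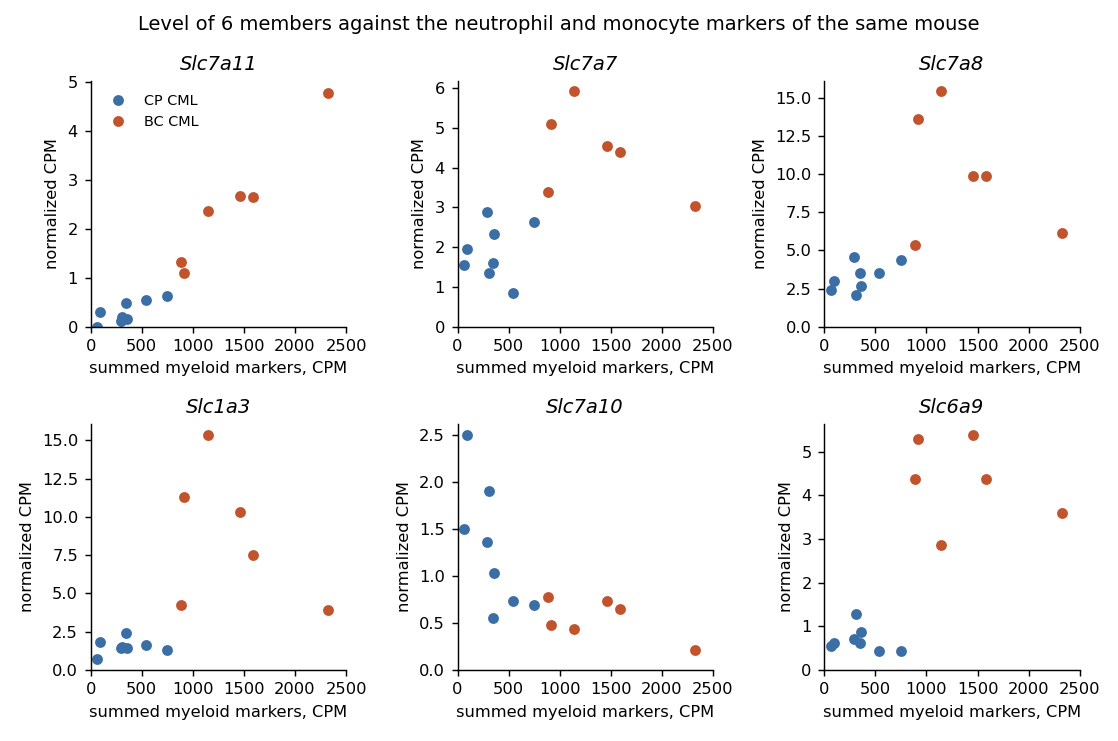
Normalized CPM of 6 members (vertical axes, starting at 0) against the summed CPM of 14 neutrophil and monocyte markers in the same mouse (horizontal axes), with 1 point per mouse. The highest Slc7a11 level of each group is in the mouse with the highest sum, while Slc6a9 separates the groups at 0.427 to 1.27 CPM and 2.87 to 5.38 CPM with no such order within them.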

How the data were processed

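T cells were sorted from the spleens of 14 mice and their mRNA was sequenced as paired reads of 101 bases (Kapa mRNA HyperPrep, NovaSeq). The authors trimmed adapters (Trimmomatic) and polyA tails (FASTP), aligned the reads to mm10 (STAR 2.6.0) and deposited raw counts per gene (HTSeq 0.11.1) with gene positions and lengths. The annotation and strand setting of the counting are not given in the sources used here, so reads of overlapping genes may be shared. Sample labels gave the groups and matched the count columns.

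Here, 12248 of 24091 genes passed edgeR's filterByExpr and were tested with edgeR 4.0.16 (R 4.3.3; TMM factors, robust quasi-likelihood test, Benjamini-Hochberg threshold of 0.05, no covariate). The SE was the log2 fold change over the square root of F. FPKM was computed as normalized CPM over the deposited length in kilobases. The 15703702 to 19914531 reads per library set the precision: a gene with 0 reads could still have up to 3. On simulated counts of BC CML against CP CML for 12171 genes, 189 of 200 genes changed by 1 on the log2 scale were recovered with 10 other calls. The 200 were drawn from genes above a minimum level and were few, while 65.2% of genes were called in the data. Recovery of members with few reads, or with most genes changed, was therefore not measured. Pairs of libraries of a group differed by more than sampling noise (chi-square per degree of freedom 3.04 to 22.8), so each was kept as a replicate.

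The families, the pathway and marker lists and the named genes were chosen with earlier results of these data known. All members could be named. Values by group are given for called members changed by at least 0.5 on the log2 scale or averaging 5 or more in log2 CPM, and of each pathway list up to 4 called genes with the largest change (average log2 CPM of 1 or more), besides Tmem27; some genes that this rule names are not reported here. Of the listed symbols 8 were not in the table; Castor1 was replaced by its older symbol Gatsl3 after the table had been seen. The alternatives were the likelihood ratio test (which the study used), DESeq2 1.42.0, scaling by RLE factors or by library size alone, testing without a filter or with one of 1 CPM in 6 or more libraries, a block for the replicate number, mean log2 CPM of the myeloid or naive markers as a covariate, and each mouse left out in turn. The 3′ UTRs came from GENCODE vM21 and promoters and microRNAs from RefSeq tables, all on the build of the counts.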

Additional observations from a re-analysis of the deposited data

Results flagged for a closer look

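Across the 30 tested members in 2 groups, 1 of 60 groups of mice held a value set far apart from the others, where chance gives about 5% (3 of 60). Slc1a4 was lowest in mouse 2 of BC CML, at 3.05 CPM, the next mouse being at 5.60 CPM, and this gap made up 0.749 of the whole range in the 6 mice. Without that mouse Slc1a4 was still called higher in BC CML.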

How the results depend on the processing

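Under the likelihood ratio test all 30 members kept their direction and their side of the threshold, and under DESeq2, RLE factors, library size alone and the filter at 1 CPM the single change of call was that of Slc6a6, which became higher; Slc7a10 was not tested at the 1 CPM filter. With the naive markers as a covariate, 1 member was higher, 3 were lower and 1919 genes were called in all (7986 without it), and with the myeloid markers 6 were lower; the marker scores correlated with the group at −0.95 and 0.75. Directions turned with the naive covariate for Slc38a9 (0.21), Slc43a3 (−0.11), Slc6a6 (−0.0036), Slc6a8 (−0.49), Slc7a1 (0.046) and Slc7a3 (−0.23), none of which was then called; the cause was not tested. Slc7a5, at 0.00, turned with library size alone (−0.0047), with the block (−0.022) and in 8 of the omissions (−0.043 to 0.084 over all omissions). Without a filter 16 members were higher and 12 lower, since more genes were tested. Leaving out each mouse in turn gave 11 to 13 members higher, 9 to 11 lower and 7721 to 7966 genes in all. The replicate numbers of the titles are shared between groups of different animals, and the deviations of same-numbered mice correlated at −0.27 to 0.36 (mean −0.02), so the numbers do not pair the mice; with the replicate number as a block, 11 members were higher, 8 lower (calls were lost for Slc1a5 at −0.22, Slc36a1 at −0.23 and Slc38a9 at −0.16, against −0.19, −0.19 and −0.21) and 7318 genes were called in all. Without mouse 2 of BC CML, 7 aminoacyl-tRNA synthetase genes were higher in place of 4. With the naive covariate the genes called higher and lower were 7 and 0 for amino acid sensing by mTORC1 (17 and 8 without it), 4 and 2 for enzymes (12 and 10), 3 and 0 for glutathione and cystine (4 and 4), 2 and 0 for synthetases (4 and 7), 0 and 2 for other transporter families (3 and 4) and 4 and 0 for partners (6 and 1); with the myeloid covariate they were 14 and 5, 8 and 6, 4 and 3, 5 and 0, 2 and 3, and 5 and 0. Depth limits members with few reads per library, such as Slc7a3, Slc7a10 and Slc7a11, and those under the filter.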
